A study of Mus musculus with 6 samples.

Results

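The genes described here are the fibroblast growth factor (FGF) ligands Fgf1, Fgf2, Fgf7, Fgf9, Fgf10 and Fgf18 and the receptors Fgfr1, Fgfr2, Fgfr3 and Fgfr4. They were chosen by name, with earlier results of these data known. All 10 were found by gene ID among the 47643 genes of the deposited count table. RNA was sequenced from whole aortas of Apoe-/- mice, which lack the lipid carrier apolipoprotein E and develop atherosclerosis. The 3 libraries of the EPO group came from mice injected intraperitoneally with recombinant human erythropoietin, the hormone of red cell production, at 5000 IU per kg and day for 4 weeks, a dose that the series calls medium. The 3 libraries of the Vehicle group came from mice of the same genotype injected with saline by the same route for the same time. Both groups lack Apoe, so every comparison is within that genotype. Age and sex of the mice were not found in the labels. Nothing says that each library came from its own animal, so p-values here reflect only how far these libraries scatter, which may be technical.

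FGF ligands are secreted proteins that bind receptor tyrosine kinases together with heparan sulfate chains on the cell surface, and the activated receptors signal through the adaptor FRS2 to the RAS and ERK kinases. Sprouty proteins, the ERK phosphatase DUSP6 and the ETS factors ETV4 and ETV5 are transcribed in response and are used as readouts of the pathway, although other growth factors also act on them. In vessels, FGF1 and FGF2 are known as growth factors of endothelial and smooth muscle cells, while FGF7 and FGF10 are made by mesenchymal cells and act through the epithelial splice form of FGFR2. FGF18 is best known from cartilage and bone.

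The total count per library was between 23278649 and 38502430. Apoe itself had 176 to 516 counts in Vehicle and 335 to 1385 in EPO, and without wild-type aorta these counts do not check the knockout. The label of the tissue was checked against marker genes. The summed level of 6 smooth muscle genes was 15400 to 22100 CPM (counts scaled by library size and TMM factor) in Vehicle and 4420 to 6990 CPM in EPO, and all 6 fell. The libraries also held RNA of fat, with 1380 to 2840 CPM of 6 white adipocyte genes in Vehicle and 563 to 1010 CPM in EPO. Skeletal muscle genes were at 5.17 to 12.1 CPM in Vehicle and at 890, 2310 and 234 CPM in EPO 1, 2 and 3. In tissue RNA, fewer cells of a type and less RNA per cell cannot be told apart.

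With EPO, Fgf18 and Fgf7 were higher, and Fgf1 and Fgfr2 were lower. The other 6 genes did not pass the test. The changes ran from 8.87-fold higher (Fgf18) to 2.72-fold lower (Fgf1). The 4 genes that passed, at an adjusted p under 0.05 in edgeR, compare with 23% of all 16522 genes tested (12.9% higher and 10.1% lower). The values of 5 of the 10 genes, these 4 and Fgf2, did not overlap between the groups, against 43.8% of all genes tested, which is near the same share. The median log2 fold change was -0.13 over the 10 genes and 0.0113 over all genes tested.

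**Figure D1:**
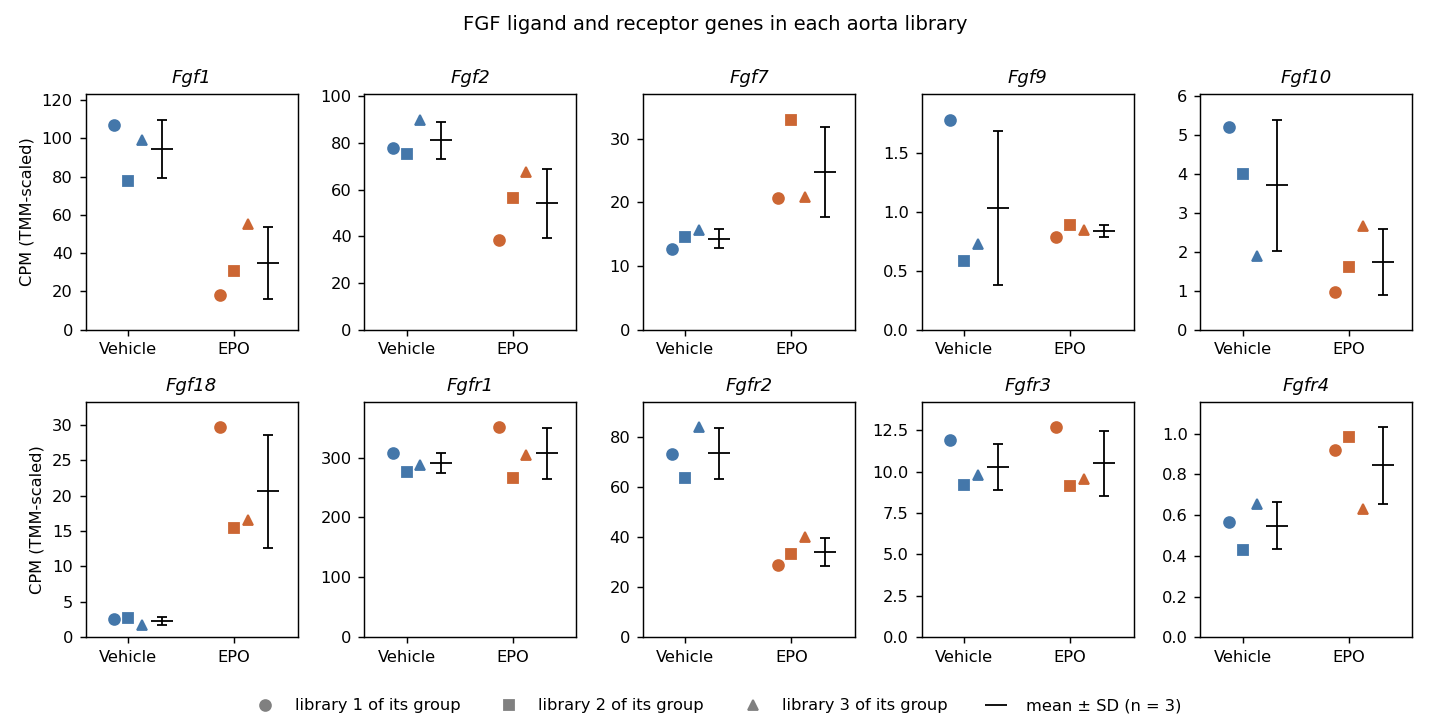
Level of each FGF ligand and receptor gene in CPM (y axis, starting at 0), with 1 marker per library and the mean ± SD of 3 libraries beside each group. Fgf18 was between 1.73 and 2.68 CPM in Vehicle and between 15.5 and 29.7 CPM in EPO, while the Fgfr1 values of the groups overlap.

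For 3 of the genes that moved, the promoter letters are shown, since they show how unlike these starts are. Each window runs from 250 bases before to 50 after a start of the gene in RefSeq (GRCm38.p6). Such a start need not be that of the GENCODE M21 gene model, whose positions are given below. The Fgfr2 window lies inside its GENCODE model, which starts at 133123350 on the minus strand. The windows of Fgf2, Fgf9 and Fgf10 also lie inside their models. Capitals mark the motifs GGGCGG or CCAAT on either strand. The Fgf18 window is chr11:33147351-33147650, minus strand, that of Fgf7 chr2:126034408-126034707, plus strand, and that of Fgfr2 chr7:130266759-130267058, minus strand.
Fgf18: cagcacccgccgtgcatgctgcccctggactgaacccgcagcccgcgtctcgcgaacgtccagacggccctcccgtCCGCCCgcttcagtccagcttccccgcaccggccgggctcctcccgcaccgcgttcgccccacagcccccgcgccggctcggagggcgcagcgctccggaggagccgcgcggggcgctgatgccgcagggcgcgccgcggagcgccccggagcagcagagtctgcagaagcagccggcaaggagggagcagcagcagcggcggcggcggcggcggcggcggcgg
Fgf7: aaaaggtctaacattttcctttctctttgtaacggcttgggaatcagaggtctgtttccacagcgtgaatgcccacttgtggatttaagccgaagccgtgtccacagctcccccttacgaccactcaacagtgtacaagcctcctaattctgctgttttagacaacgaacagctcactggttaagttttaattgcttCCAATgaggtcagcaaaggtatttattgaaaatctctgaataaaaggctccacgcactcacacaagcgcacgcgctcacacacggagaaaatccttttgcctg
Fgfr2: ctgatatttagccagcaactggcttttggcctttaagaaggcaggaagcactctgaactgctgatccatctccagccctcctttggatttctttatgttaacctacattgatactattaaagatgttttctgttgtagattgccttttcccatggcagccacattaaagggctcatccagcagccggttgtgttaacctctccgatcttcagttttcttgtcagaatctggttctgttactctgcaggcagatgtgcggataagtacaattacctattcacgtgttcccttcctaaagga
The Fgf18 window was 78.7% G and C with 47 CpG, against medians of 52.7% and 7 CpG over all 32851 promoter windows. The Fgf7 window was 45.7% G and C with 11 CpG, and the Fgfr2 window 43.7% with 4 CpG, so the genes that rose did not share this composition. A GGGCGG motif, the GC box, began at -174 from the start of Fgf18 (on the other strand, where it reads CCGCCC), and a CCAAT motif at -53 in Fgf7. Windows were at hand for 8 of the 10 genes (not for Fgf1 and Fgfr1). Of these 8 genes, 5 held GGGCGG in any window (35.7% of all windows did) and 2 held CCAAT (37.4%). Genes were counted here and windows in the background, and Fgfr3 also had a second window, without CCAAT. None of the 8 held TATAAA (13.6% of all windows), the AP-1 motif TGANTCA (7.81%), the STAT motif TTCNNNGAA (8.3%) or the CArG box of serum response factor (1.63%). The motifs were searched on both strands. A match or its absence describes these letters only.

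Among the ligands, Fgf18 had the largest change. Fgf18 (ENSMUSG00000057967, GRCm38 chromosome 11, 33117430 to 33147400) belongs to the FGF8 subfamily. Its level was 2.56, 2.68 and 1.73 CPM in Vehicle 1, 2 and 3 and 29.7, 15.5 and 16.5 CPM in EPO 1, 2 and 3, from 178 counts in all in Vehicle and 2071 in EPO. Every EPO library was above every Vehicle library, and EPO 1 was the highest. The means were 2.32 ± 0.522 and 20.6 ± 7.95 CPM (SD, n = 3 each), a log2 fold change of 3.15 (SE 0.33, edgeR adjusted p = 0.00225), which ranked 161 from the top among 16522 genes. The call held in each of the 6 fits with 1 library left out, with log2 fold changes from 2.78 to 3.32. Without both EPO 1 and EPO 2 the log2 fold change was 2.83. That fit holds 1 EPO library and no spread within EPO, so only its fold changes are given here and below. Markers of cartilage were also higher in EPO, with 5 of 6 chondrocyte genes called. The summed level of the 6 was 109 to 208 CPM in Vehicle and 736 to 961 CPM in EPO. Col2a1, the defining collagen of cartilage, did not pass (log2 fold change 0.03, edgeR adjusted p = 0.975). Sox9 kept its call in 1 of the 6 fits with 1 library left out (edgeR adjusted p up to 0.153 in the others). Within EPO, Sox9, Matn3, Col11a1 and Col2a1 were lowest in EPO 1, where Fgf18 was highest. Comp and the sum were highest in EPO 1, and Acan was highest in EPO 2. The summed level of 6 fibroblast genes was 5910 to 7380 CPM in Vehicle and 26300 to 32900 CPM in EPO, with 2 of 6 higher. Almost all of that rise was Col1a1, a collagen gene that other cell types also express, which went from 3440 ± 553 to 25700 ± 3370 CPM. The sum of the other 5 was 3010 to 3380 CPM in Vehicle and 3550 to 4090 CPM in EPO. Of those 5, Lum was the one called (log2 fold change 1.03, edgeR adjusted p = 0.0419), a call lost whichever of the 6 libraries was left out (0.0556 to 0.0859). The summed level of 6 macrophage genes was 528 to 894 CPM in Vehicle and 2820, 1110 and 1170 CPM in EPO 1, 2 and 3, with 2 of 6 higher. The share called higher was 83.3% for the chondrocyte and 33.3% for the fibroblast and macrophage genes, against 12.9% of all genes tested. The part of these cell types in the Fgf18 result was not tested.

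Fgf7 and Fgf10 encode ligands of the same splice form of FGFR2. Fgf7 passed the test and Fgf10 did not. Fgf7, keratinocyte growth factor (ENSMUSG00000027208, chromosome 2, 126034658 to 126091185), was at 12.7, 14.5 and 15.6 CPM in Vehicle and at 20.7, 33.0 and 20.8 CPM in EPO 1, 2 and 3. The groups did not overlap, and EPO 2 stood above the other EPO libraries. The means were 14.3 ± 1.45 and 24.8 ± 7.04 CPM, a 1.74-fold rise (log2 fold change 0.80, SE 0.21, edgeR adjusted p = 0.0329). The call was lost without Vehicle 1, Vehicle 2, Vehicle 3 or EPO 2 (edgeR adjusted p = 0.131, 0.102, 0.0654 and 0.0618). Without both EPO 1 and EPO 2 the log2 fold change was 0.55. Fgf10 (ENSMUSG00000021732, chromosome 13, 118669791 to 118792115), which drives the budding of lung and limb, was at 5.21, 4.00 and 1.90 CPM in Vehicle and at 0.976, 1.6 and 2.65 CPM in EPO. Its groups overlapped through Vehicle 3 and EPO 3. Its log2 fold change was -1.09 (SE 0.48, 95% interval -2.22 to 0.04, edgeR adjusted p = 0.147), so a fall of this size was not told apart from the spread between libraries. Per kilobase of exon, Fgf7 exceeded Fgf10 3.46-, 5.13- and 11.6-fold in Vehicle 1, 2 and 3 and 30.1-, 29.3- and 11.1-fold in EPO 1, 2 and 3. These ratios overlap between the groups.

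Fgf1 and Fgf2, both released from cells without a classical signal peptide, were the most abundant ligands in Vehicle per length of exon. Fgf1 (ENSMUSG00000036585, chromosome 18, 38838673 to 38929472), which binds all FGF receptors, was at 107, 77.8 and 99.0 CPM in Vehicle and at 18, 30.8 and 55.4 CPM in EPO 1, 2 and 3. All EPO libraries were below all Vehicle libraries, with EPO 1 the lowest. The means were 94.7 ± 15.2 and 34.8 ± 19 CPM, a 2.72-fold fall (log2 fold change -1.45, SE 0.37, edgeR adjusted p = 0.0299). The call was lost without Vehicle 1, Vehicle 2, Vehicle 3 or EPO 2 (edgeR adjusted p = 0.0961, 0.0606, 0.0698 and 0.0864). Without both EPO 1 and EPO 2 the log2 fold change was -0.77.

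Fgf2, basic FGF (ENSMUSG00000037225, chromosome 3, 37348346 to 37410108), was at 78.0, 75.3 and 90.1 CPM in Vehicle and at 38.3, 56.4 and 67.5 CPM in EPO. These groups did not overlap either, and EPO 1 was again the lowest. The log2 fold change of -0.59 (SE 0.21, 95% interval -1.07 to -0.10) missed the threshold after adjustment (edgeR adjusted p = 0.0797) and passed it in DESeq2 (adjusted p = 0.0426) and in edgeR without EPO 3 (0.0428). Of the Fgf2 exon sequence 9.44% overlaps Nudt6 on the opposite strand, and with no strand option known for the counting, reads there cannot be assigned to either gene.

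In Fgf1, Fgf2, Fgf10 and Fgfr2 the EPO libraries had the same order, upward from EPO 1 through EPO 2 to EPO 3. The summed smooth muscle markers had that order as well, at 4420, 5720 and 6990 CPM. In Vehicle 1, 2 and 3 that sum was 22100, 15400 and 18000 CPM. Fgf1 had the same order there, and Fgf2, Fgf10 and Fgfr2 did not. The white adipocyte sum was 1010, 563 and 653 CPM in EPO 1, 2 and 3, highest in EPO 1. Fgf18, Fgfr1, Fgfr3 and the summed macrophage and Schwann cell markers had that order of EPO libraries too. The brown adipocyte sum ran in the reverse of the smooth muscle order, at 746, 587 and 369 CPM in EPO 1, 2 and 3. The endothelial and chondrocyte sums had that reverse order as well. Fgfr4 shared its order with the skeletal and cardiac muscle sums. So few libraries allow few orders, and a shared order is a description only. The part of smooth muscle or fat RNA in the lower values of Fgf1, Fgf2, Fgf10 and Fgfr2 was not tested.

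Fgf9 (ENSMUSG00000021974, chromosome 14, 58070547 to 58112720), a ligand with roles in skeletal and gonadal development, was scarce in both groups. It had 41, 15 and 21 counts in Vehicle and 28, 26 and 28 in EPO, or 1.03 ± 0.655 and 0.835 ± 0.0512 CPM. Vehicle 1 alone was above the rest. The log2 fold change was -0.29 (SE 0.46, 95% interval -1.37 to 0.79, edgeR adjusted p = 0.688), and without Vehicle 1 it was 0.32, so its direction rests on that library.

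Of the receptors, Fgfr2 fell and Fgfr1 did not pass the test. Fgfr2 (ENSMUSG00000030849, chromosome 7, 130162451 to 133123350 in GENCODE M21, a model that reaches into exons of Ctbp2 on the same strand) was at 72.9, 63.5 and 83.8 CPM in Vehicle and at 28.8, 33.2 and 39.9 CPM in EPO 1, 2 and 3. The groups lay far apart, with the highest EPO library below the lowest Vehicle library. The means were 73.4 ± 10.2 and 34 ± 5.58 CPM, a 2.16-fold fall (log2 fold change -1.11, SE 0.16, edgeR adjusted p = 0.00471). The call held in each of the 6 fits with 1 library left out, with log2 fold changes from -1.24 to -1.01. Without both EPO 1 and EPO 2 the log2 fold change was -0.88. Counts per gene do not separate the epithelial and mesenchymal splice forms of the receptors.

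Fgfr1 (ENSMUSG00000031565, chromosome 8, 25513654 to 25575718), the main FGF receptor of mesenchymal cells, was at 308, 276 and 288 CPM in Vehicle and at 351, 266 and 304 CPM in EPO. The groups overlapped, with the highest and the lowest value both in EPO. With 22542 counts in all in Vehicle and 30554 in EPO it was the most deeply counted of the 10 genes. Its log2 fold change was 0.08 (SE 0.15, edgeR adjusted p = 0.733), and the 95% interval of -0.26 to 0.42 does not include a change as large as that of Fgfr2.

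Fgfr3 and Fgfr4 were lower in level. Fgfr3 (ENSMUSG00000054252, chromosome 5, 33721674 to 33737068), the receptor that restrains growth of cartilage, was at 11.9, 9.21 and 9.80 CPM in Vehicle and at 12.7, 9.13 and 9.59 CPM in EPO. Its groups overlapped throughout (log2 fold change 0.03, SE 0.19, 95% interval -0.42 to 0.48, edgeR adjusted p = 0.936), and 13.9% of its exon sequence lies opposite G630022F23Rik. Fgfr4 (ENSMUSG00000005320, chromosome 13, 55152640 to 55168759), the receptor of bile acid control in liver, had 11 to 19 counts per library in Vehicle and 21 to 33 in EPO. Its means were 0.549 ± 0.115 and 0.845 ± 0.188 CPM with overlapping groups (log2 fold change 0.61, SE 0.35, 95% interval -0.21 to 1.44, edgeR adjusted p = 0.248).

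**Figure D2:**
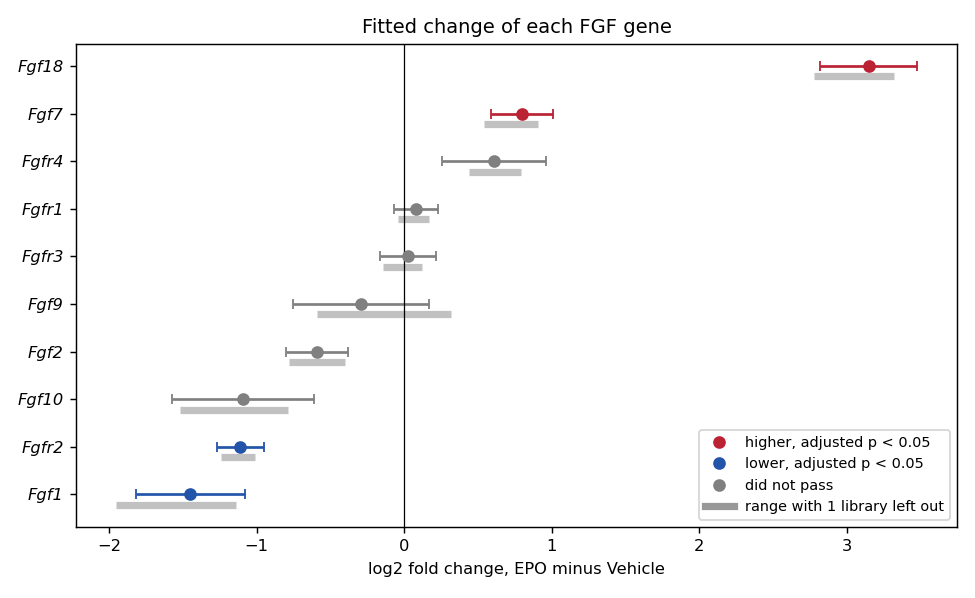
Fitted log2 fold change (x axis, EPO minus Vehicle) of the 10 genes with its standard error, and beneath each point a grey bar for the range over the 6 fits with 1 library left out. Fgf18 stands at 3.15 and Fgf1 at -1.45; the bars of Fgf9, Fgfr1 and Fgfr3 cross 0.

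To compare levels between genes, CPM was divided by the length of the exons of each gene joined over its transcripts. On this scale Fgfr1 was the highest of the 10 genes in both groups, at 29.4 ± 1.62 CPM per kilobase in Vehicle and 31.1 ± 4.28 in EPO. In Vehicle the order below it was Fgf1 (17.3 ± 2.78), Fgf2 (12 ± 1.16), Fgfr2 (7.11 ± 0.985) and Fgf7 (4.4 ± 0.445), each apart from the next in all libraries. Fgf18 (1.96 ± 0.44) and Fgfr3 (1.44 ± 0.194) overlapped, as did Fgf9 and Fgfr4 at the bottom, with Fgf10 (0.805 ± 0.365) in between. In EPO, Fgf18 came second at 17.3 ± 6.7 CPM per kilobase. Below it Fgf2 (7.97 ± 2.17), Fgf7 (7.65 ± 2.17), Fgf1 (6.36 ± 3.48) and Fgfr2 (3.29 ± 0.54) overlapped each with its neighbour. Fgfr3 followed at 1.46 ± 0.273, and Fgf10, Fgfr4 and Fgf9 overlapped at the bottom.

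Per kilobase, the summed level of the 6 ligands overlapped between the groups, while the shares of Fgf18, Fgf7, Fgf1 and Fgf2 in it did not. The sum was 36.7 ± 3.14 CPM per kilobase in Vehicle and 39.9 ± 1.9 in EPO. Fgf18 made up 5.58%, 6.84% and 3.80% of it in Vehicle 1, 2 and 3 and 61.4%, 34.6% and 33.8% in EPO 1, 2 and 3. The share of Fgf1 went the other way, from 50.7%, 43.0% and 47.4% to 8.10%, 15.0% and 24.7%. The share of Fgf7 was 10.1% to 13.5% in Vehicle and 15.6% to 26.9% in EPO. That of Fgf2 was 29.7% to 34.8% in Vehicle and 13.9% to 24.2% in EPO. For the receptors the sum was 38.1 ± 2.34 and 36.1 ± 4.3 CPM per kilobase, and the share of Fgfr2 was 17.6%, 17.3% and 20.9% in Vehicle and 6.92%, 10.1% and 10.7% in EPO. Fgfr1 accordingly made up 77.2% ± 1.88 of receptor RNA in Vehicle and 86% ± 1.72 in EPO. These sums and shares are descriptions with no test. Both depend on the exon length used, which for Fgf18 is 1.19 kb, the shortest of the 10. In CPM not divided by length, the sum of all 10 genes did not overlap between the groups. It was 524 to 601 CPM in Vehicle and 448 to 518 CPM in EPO.

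**Figure D3:**
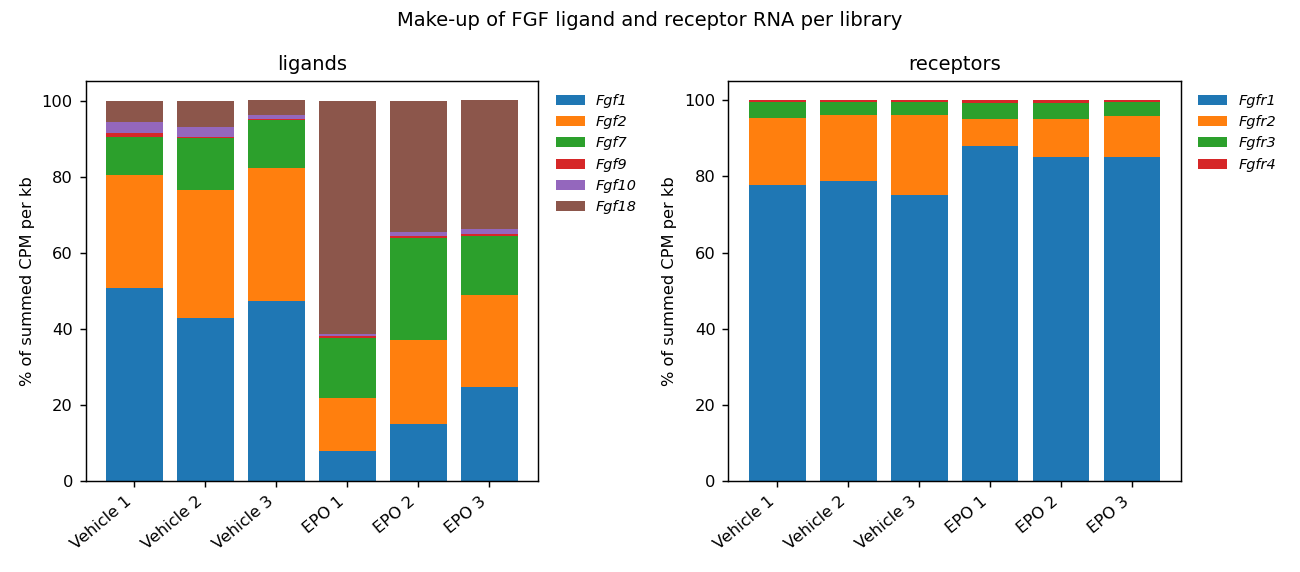
Share of each gene (y axis, percent) in the summed CPM per kilobase of the 6 ligands (left) and the 4 receptors (right), 1 bar per library. Fgf18 takes 33.8% to 61.4% of ligand RNA in the EPO libraries against 3.80% to 6.84% in Vehicle.

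Other genes of the pathway were read from lists by role. The lists were chosen with earlier results of these data known, so the shares called in them are descriptions only. Of 12 other secreted FGF ligands, 2 had enough counts to be tested and neither passed: Fgf16 (log2 fold change -0.33, edgeR adjusted p = 0.393) and Fgf23, the phosphate hormone of bone (0.12, 0.933). DESeq2, limma-voom and an unadjusted edgeR p under 0.05 called 0 of them as well. The other 10 reached at most 0.577 CPM in any library (Fgf6, with 17 counts), and 1 had no count at all. Of the 4 FGF homologous factors, which stay inside the cell and act on voltage-gated sodium channels, 2 fell (50% called, against 23% of all genes tested). Fgf14 was at 10.8, 11.7 and 11 CPM in Vehicle and at 5.83, 6.01 and 7.46 CPM in EPO (log2 fold change -0.80, edgeR adjusted p = 0.0164). Fgf13 went from 14.5 ± 2.7 to 5.24 ± 2.87 CPM (-1.47, 0.0459). Both lost their calls without Vehicle 1, Vehicle 2 or EPO 2 (edgeR adjusted p from 0.052 to 0.139), and Fgf13 also without Vehicle 3 (0.0899). Fgf11 (-0.19) and Fgf12 (0.09) did not pass.

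Of 22 co-receptors and FGF binding proteins, 19 were tested, 6 were higher and 3 lower, and the median log2 fold change was 0.17. That is 47.4% called, against 23% of all genes tested (12.9% higher and 10.1% lower). Gpc1, a heparan sulfate proteoglycan anchored in the membrane, was at 52.7, 47.7 and 55.0 CPM in Vehicle and at 187, 228 and 169 CPM in EPO, a 3.76-fold rise (edgeR adjusted p = 0.00105). Of its exons 18.9% lie opposite Ankmy1. Cdh2, N-cadherin, which binds FGFR1, rose 3.69-fold from 8.47 ± 1.77 to 31.2 ± 6.38 CPM (edgeR adjusted p = 0.00277). Flrt2, a membrane protein of the family that binds FGF receptors, rose 2.09-fold (0.00413). The proteoglycans Sdc1 (3.06-fold), Sdc3 (2.21-fold) and Gpc4 (1.48-fold), named after their values were seen, were higher too. Sdc3 lost its call without Vehicle 1 (edgeR adjusted p = 0.105) or Vehicle 2 (0.0864). For Gpc4 that happened without Vehicle 2, Vehicle 3, EPO 2 or EPO 3 (0.0514 to 0.0964).

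Ncam1, an adhesion molecule that binds FGF receptors, fell 2.72-fold from 348 ± 43.8 to 128 ± 28.8 CPM (edgeR adjusted p = 0.00399). Gpc3 fell 1.94-fold (0.014; without Vehicle 2, 0.0504). Klb, the co-receptor of FGF21 known from fat and liver, went from 4.31 ± 1.78 to 1.82 ± 0.364 CPM (log2 fold change -1.24, edgeR adjusted p = 0.0477), a call that held only without Vehicle 3 among the 6 fits with 1 library left out (edgeR adjusted p up to 0.158 in the others) and that limma-voom did not make (0.0707). Of 6 white adipocyte genes, 5 were lower in the same libraries, and their part in the Klb result was not tested.

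Of 18 genes of heparan sulfate synthesis and editing, 17 were tested, 4 were higher and 2 lower, and the median log2 fold change was 0.36. The share called was 35.3%, against 23% of all genes tested. Hs2st1, the sulfotransferase that adds the 2-O-sulfate used in FGF binding, was at 23.4, 29.0 and 25.4 CPM in Vehicle and at 60.0, 70.1 and 68.2 CPM in EPO, a 2.55-fold rise (edgeR adjusted p = 0.00188). Hs6st2, a 6-O-sulfotransferase, was at 4.65, 10.1 and 7.66 CPM in Vehicle and at 54.7, 55.0 and 20.0 CPM in EPO, where EPO 3 was the lowest. Its log2 fold change was 2.53, and 1.42 without both EPO 1 and EPO 2. The rise was 5.79-fold (edgeR adjusted p = 0.00791). Hpse, the heparanase that cuts the chains, rose 1.72-fold (0.0181), and Hs3st3a1 2.82-fold (0.0309), though 32.9% of its exons lie opposite another gene. The lower genes were Hs3st1 (1.63-fold, 0.015) and Ndst3 (2.85-fold, 0.0189). These last 4 lost their calls without some single libraries. For Hpse these were Vehicle 1, Vehicle 2 and EPO 3, and for Hs3st3a1 Vehicle 1, 2 and 3 and EPO 2. For Hs3st1 they were Vehicle 1 and Vehicle 3, and for Ndst3 Vehicle 1, Vehicle 2, EPO 2 and EPO 3 (edgeR adjusted p from 0.0509 to 0.11 in all these fits).

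Few genes of the signalling core changed. Of 21 receptor-proximal genes tested, 2 were higher and 0 lower (9.52% called, against 23% of all genes tested), and the median log2 fold change was 0.07. Nras rose 1.55-fold (edgeR adjusted p = 0.0197) and Crkl, an adaptor protein, 1.54-fold (0.0334). Nras lost its call without Vehicle 1, Vehicle 2 or EPO 2 (0.0893, 0.0571 and 0.0574), and Crkl in every fit with 1 library left out but that without EPO 3 (0.0594 to 0.129). Cbl (0.54) and Braf (-0.45) had the next smallest p and did not pass (adjusted p = 0.0506 and 0.0549). At an unadjusted p under 0.05 edgeR had 2 lower genes in this list, and DESeq2 called 1 after adjustment and limma-voom 0.

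Of 17 feedback inhibitors and transcriptional targets, 16 were tested, 6 were higher and 1 lower, and the median log2 fold change was 0.25. The share called was 43.8%, against 23% of all genes tested. Of the 4 readouts used most often, Dusp6 and Etv4 rose and Etv5 and Spry4 did not pass. Dusp6 was at 39.7, 52.2 and 43.7 CPM in Vehicle and at 84.5, 77.3 and 76.5 CPM in EPO, without overlap. Its log2 fold change was 0.81, and 0.76 without both EPO 1 and EPO 2. The rise was 1.76-fold (edgeR adjusted p = 0.00662). Etv4 was at 2.61, 2.49 and 2.24 CPM in Vehicle and at 5.74, 9.17 and 9.23 CPM in EPO, a 3.29-fold rise (0.00466) that kept its call in all 6 fits with 1 library left out. Etv5 was at 25.3, 24.8 and 27.9 CPM in Vehicle and at 27.4, 31.5 and 35.2 CPM in EPO, and its groups overlapped (log2 fold change 0.27, SE 0.13, edgeR adjusted p = 0.185). Spry4 was at 16.3, 18.4 and 20.0 CPM in Vehicle and at 13.3, 25 and 18.4 CPM in EPO (0.05, SE 0.23, 0.906), with the highest and the lowest value both in EPO. In all, 9 of the 16 tested genes did not pass. Among these, named after their values were seen, were Spry1 (log2 fold change 0.19, edgeR adjusted p = 0.549) and Spry2 (-0.15, 0.65).

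**Figure D4:**
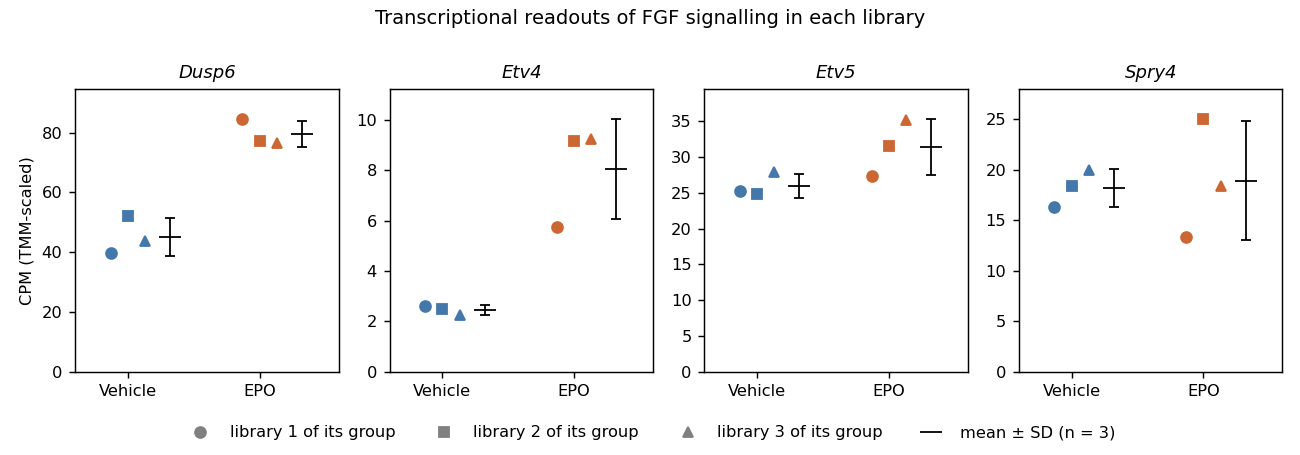
Level of the pathway readouts Dusp6, Etv4, Etv5 and Spry4 in CPM (y axis, starting at 0), with 1 marker per library and the mean ± SD of 3 libraries. Dusp6 and Etv4 separate the groups, while Etv5 and Spry4 overlap.

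Spred1, an inhibitor of the RAS pathway, rose 1.70-fold (50.4 ± 2.86 to 85.7 ± 7.45 CPM, edgeR adjusted p = 0.00524), and Myc, a growth-promoting transcription factor, rose 2.03-fold (12.5 ± 1.98 to 25.4 ± 3.35 CPM, 0.00706). The remaining higher genes, named after their values were seen, were Dusp5 (2.24-fold) and Ccnd1, cyclin D1 (1.58-fold), of which Ccnd1 lost its call without Vehicle 1, Vehicle 3 or EPO 2 (edgeR adjusted p = 0.0874, 0.0663 and 0.0637). Of the exons of Dusp5 22.1% lie opposite AC137853.2, and of those of Ccnd1 23.4% lie opposite LTO1. Etv1, an ETS factor of the same family as Etv4, was the lower gene, from 12.3 ± 0.561 to 7.19 ± 0.541 CPM (log2 fold change -0.78, edgeR adjusted p = 0.0119). Without both EPO 1 and EPO 2 its log2 fold change was -0.85.

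**Figure D5:**
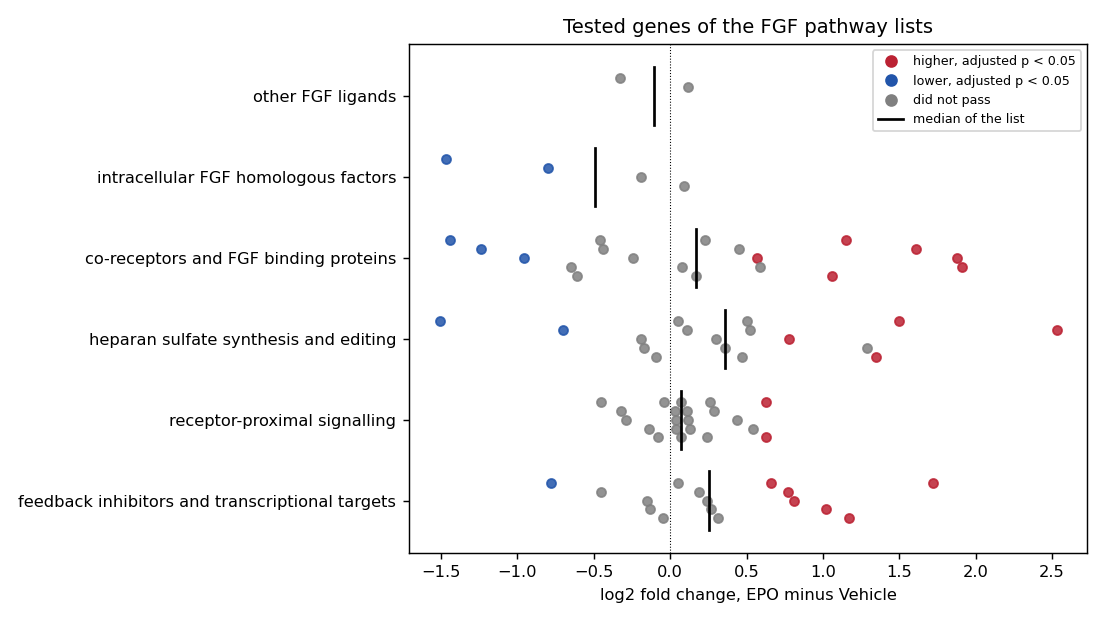
Fitted log2 fold change (x axis, EPO minus Vehicle) of every tested gene of the 6 pathway lists, 1 point per gene, red or blue where the adjusted p was under 0.05, with the median of each list as a black line. The receptor-proximal genes run from -0.45 (Braf) to 0.63 (Nras and Crkl), and Hs6st2 lies at 2.53.

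The genes whose pattern over the 6 libraries was most like that of each FGF gene that passed were found by Pearson's r of log2 CPM among 13111 named genes. With so few libraries that share groups and scaling, high values are common and r is given as a description only. For Fgf18 they were Oaf (r = 0.9993), which was at 33.2, 32.8 and 29.0 CPM in Vehicle and 93.8, 71.3 and 73.5 CPM in EPO, and Sec14l1 (0.9962). For Fgf7 they were Ggta1 (0.9991) and Manf (0.9947), a secreted protein of the endoplasmic reticulum stress response. Ggta1 itself did not pass the test (log2 fold change 0.48, edgeR adjusted p = 0.0522). For Fgf1 they were Rbbp7 (0.9981), a histone-binding protein, and Abat (0.9964), the enzyme that breaks down GABA. Rbbp7 did not pass either (log2 fold change -0.43, edgeR adjusted p = 0.076). For Fgfr2 they were Rragb (0.9972), a GTPase of amino acid sensing, and Lzts3 (0.9962).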

How the data were processed

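RNA of whole aorta was sequenced in 3 Vehicle and 3 EPO libraries. Per the submitters' processing notes, base calling used CASAVA 1.8 and alignment TopHat2 2.0.6 on mm10; which tool counted the reads, with which strand option and which gene models, is not stated there. The values the authors deposited are whole-number counts per Ensembl gene, not normalized; columns named Con were read as Vehicle. Symbols, positions and exon lengths came from GENCODE M21 (GRCm38, the assembly of mm10), which matched 47224 of 47643 IDs; Spry3 was not analysed here.

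In R 4.3.3, edgeR 4.0.16 removed genes of low count (filterByExpr), scaled by TMM and ran its quasi-likelihood test with group as sole term, two-sided, Benjamini-Hochberg adjusted over 16522 genes; adjusted p under 0.05 was called. All 10 FGF genes passed the filter. CPM is TMM-scaled, log2 CPM used a prior count of 2, and 95% intervals used the t distribution of the fit. The procedure was also run on simulated data, but the outcome is not given here, so no conclusion is drawn from that run. Alternatives were other scalings and filters, DESeq2 1.42.0, limma-voom 3.58.1, robust dispersion, a replicate block, removal of 51 haemoglobin and mitochondrial genes, and omitted libraries. A count of 1 was worth 0.0279 to 0.0435 CPM, which limits scarce genes. The text names all FGF genes, up to 4 genes of smallest p per list, those completing counts of 5 or fewer, the 2 genes most like each called FGF gene, and Spry4, Dusp6, Etv4 and Etv5 as widely used readouts. Members and lists were chosen with earlier results of these data known.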

Additional observations from a re-analysis of the deposited data

How the results depend on the processing

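Scaling, filtering, DESeq2, limma-voom, robust dispersion and removal of haemoglobin and mitochondrial genes left the FGF genes called at 2 higher and 2 lower, with 3 lower in DESeq2, where Fgf2 joined. With 1 library left out the numbers ran from 1 to 2 higher and from 1 to 3 lower, and the genes changed in all from 1635 to 4281 against 3804. Without EPO 1 and EPO 2 they were 1 higher, 0 lower and 1548 in all; fewer samples enter these fits. Libraries of the same number had correlations of deviations of -0.0088, -0.0098 and 0.127 for numbers 1, 2 and 3. Those of unlike numbers ran from -0.101 to 0.12. These values show no clear pairing, and with 3 libraries per group they cannot exclude it. With the replicate block 2884 genes were called, among them 2 FGF genes higher and 2 lower.

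Fold changes near 0 changed sign, and the cause was not tested. For Fgfr3 the log2 fold change was -0.0029 with library size alone, -0.1 without EPO 1 and EPO 2 and -0.14 to 0.12 with 1 library left out; the latter range was -0.04 to 0.17 for Fgfr1 and -0.59 to 0.32 for Fgf9. Fgf23 was at -0.23 in limma-voom, -0.08 with the replicate block, -0.9 without EPO 1 and EPO 2 and -1.2 to 0.85 with 1 library left out; Fgf12 at -0.13 without EPO 1 and EPO 2 and -0.08 to 0.27 with 1 left out; Spry4 at -0.01 in limma-voom and -0.2 to 0.24 with 1 left out.

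Counts of the lists moved by over 1.5 times as follows. In DESeq2, 5 co-receptor genes were lower (3 in edgeR), 8 heparan sulfate genes higher (4) and 1 receptor-proximal gene lower (0). With the replicate block, 1 homologous factor was lower (2), as with library size alone, and 1 receptor-proximal gene higher (2). With 1 library left out the ranges were 0 to 2 homologous factors lower, 1 to 4 co-receptors lower, 2 to 6 heparan sulfate genes higher and 0 to 2 lower, and 0 to 3 receptor-proximal genes higher and 0 to 1 lower. For the fit without EPO 1 and EPO 2, which holds 1 EPO library, counts of the lists are not given.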
